A study of Mus musculus with 109 samples.

Results

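The 29 genes described here encode enzymes and regulators of cholesterol and fatty acid synthesis. They were chosen by their place in the pathway, and all 29 were found among the 15973 genes of the count table. Msmo1 was found under its older symbol Sc4mol. By role, 7 members act in the early sterol pathway from acetyl-CoA to farnesyl pyrophosphate, 11 act from squalene to cholesterol, 5 control the SREBP transcription factors and 6 make or desaturate fatty acids.

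The samples were single cells from cerebella of C57BL/6 mice at postnatal day 7, labelled as granule precursor cells, enriched on a Percoll density gradient and captured on C1 Fluidigm chips before RNA-seq. No treatment or genotype other than the strain was given in the labels. The labels place the cells in 6 library groups, 1 of 19 cells and 5 of 18, and do not say whether these came from separate animals, so each p-value measures the spread between library groups only. The study asked how granule cell progenitors (GCPs) differ from one another and from granule cells (GCs).

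Cells make cholesterol from acetyl-CoA through mevalonate, squalene and lanosterol. When sterol in the endoplasmic reticulum is low, the escort protein Scap carries the SREBP precursors to the Golgi, where proteases free a transcription factor that binds sterol regulatory elements of genes for both sterol and fatty acid synthesis. Insig1 and Insig2 hold Scap back when sterol is plentiful. In the developing brain, cholesterol is made within the tissue, and myelinating oligodendrocytes are known for a high rate of synthesis. GCPs divide in the external granule layer under sonic hedgehog, a ligand that itself carries cholesterol, and become young GCs that express doublecortin (Dcx).

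Cells were placed in classes by 2 genes that are not members. Mki67, a marker of cycling cells, was at 100 CPM (counts scaled to a cell total of 1000000) or more in 32 Mki67-high cells and under 10 CPM in 75 Mki67-low cells, and 2 cells lay between. Dcx was at 1000 CPM or more in 54 Dcx-high cells, between the limits in 29 Dcx-middle cells and under 100 CPM in 26 Dcx-low cells. Each library group held 3 to 8 Mki67-high and 2 to 6 Dcx-low cells. Of the 7 granule lineage markers, Neurod1 was at 10 CPM or more in 105 cells, Zic1 in 97, Meis1 in 90 and Pax6 in 85. The others were found in fewer cells, Zic2 in 46, Barhl1 in 34 and Atoh1 in 11. At least 3 of 18 astroglial and oligodendrocyte markers were at 50 CPM or more in 16 cells. These 16 cells included 7 of the 32 Mki67-high cells and 9 of the 75 Mki67-low cells. The 4 markers of other cerebellar neurons summed to 5.2 CPM in Mki67-high and 344 CPM in Mki67-low cells. Gad1 was at 10 CPM or more in 2 Mki67-high and 12 Mki67-low cells, Pax2 in 0 and 9, Calb1 in 1 and 0 and Pvalb in 1 and 0. The part of such cells in the Mki67 differences was not tested. The median cell had a total of 3604792 counts (lowest 15071, next lowest 1110182, highest 8616017), and 2 cells had over 10000 detected genes where no other cell had more than 6420.

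Short stretches of promoter sequence are given for Hmgcs1 and Insig1, on which results below turn, and for Acat2, the other member with the sterol element core. They were read from the 250 bases before the RefSeq start of each gene in GRCm38.p6, which were at hand for 24 of the 29 members, on the strand of the gene. Capitals mark the motif. The first line holds the sterol regulatory element-like motif TCACNCCAC of Hmgcs1, at chr13:119690199-119690237 on the plus strand, 137 bases before the start. The next lines hold its shorter core CACNCCAC upstream of Acat2, at chr17:12960884-12960921 on the minus strand, and of Insig1, on the opposite strand of the motif, at chr5:28071388-28071411 on the plus strand. The last lines hold the E-box CACGTG of Insig1 at chr5:28071296-28071331 and a CCAAT box of Hmgcs1, read on the opposite strand, at chr13:119690160-119690194.
Hmgcs1: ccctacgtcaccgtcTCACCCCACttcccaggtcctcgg
Acat2: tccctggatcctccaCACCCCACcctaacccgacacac
Insig1: ggtacgtgtagtgtcGTGGCGTGt
Insig1: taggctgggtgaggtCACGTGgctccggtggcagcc
Hmgcs1: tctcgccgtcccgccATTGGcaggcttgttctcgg

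Both strands were searched. TCACNCCAC, which contains the core, was present for 1 of the 24 members, Hmgcs1, in 1.05% of 32851 promoters, and for 1.21% of the 9644 genes of the count table with a promoter. The core was present for 3 of the 24, Acat2, Hmgcs1 and Insig1, in 5.29% of promoters, and for 6.65% of these genes. CCAAT, bound by NF-Y, was present for 19 of the 24 members in 33.8% of promoters, and for 41.3% of these genes. CACGTG was present for 5 members, Dhcr7, Hsd17b7, Insig1, Sc5d and Scap, in 6.02% of promoters, and for 9.81% of these genes. A match only says that these letters are in the window.

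Across all cells, the 29 members together took 4260 ± 487 CPM (mean ± SD of the 6 library groups). Hmgcs1, the cytosolic HMG-CoA synthase that condenses acetoacetyl-CoA with acetyl-CoA, was at 1030 ± 295 CPM, and its library group means ran from 490.0 to 1390 CPM. Per kilobase of exon, which allows levels to be compared between genes, Hmgcs1 stood at 225 ± 64.3 CPM per kb. Scd2, a stearoyl-CoA desaturase, followed at 64.3 ± 29.7 CPM per kb, and Fads1, the delta-5 fatty acid desaturase, at 63.2 ± 32.8. The lowest library group of Hmgcs1 was above the highest of Scd2. In the other 27 of 28 neighbouring pairs in this order, the library group ranges overlapped. At the lower end stood Idi1, the isopentenyl diphosphate isomerase, at 1.01 ± 0.617 CPM per kb, and Tm7sf2, a sterol C14 reductase, at 2.48 ± 2.37.

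**Figure D1:**
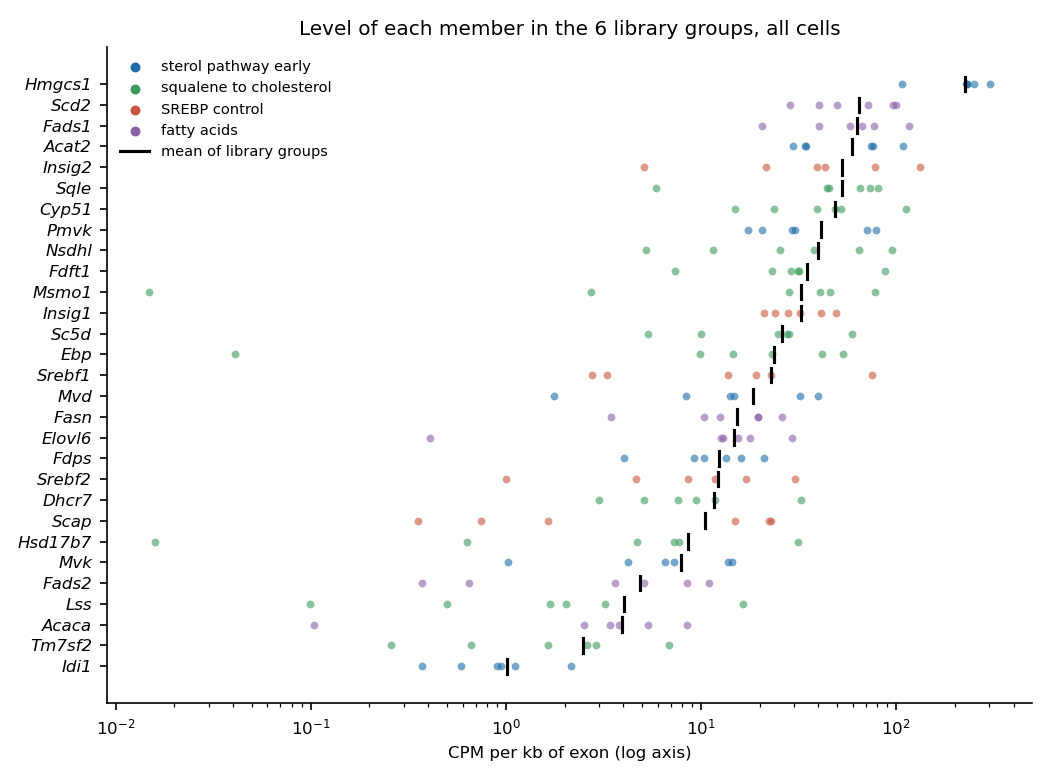
Level of each of the 29 members in CPM per kb of exon on a log axis, one point per library group (mean over its cells, 18 or 19 each), coloured by role, with the mean of the 6 groups as a bar. The mean of Hmgcs1 stands to the right of all other means, at 225 CPM per kb against 64.3 for Scd2. Its lowest library group, at 107, lies to the left of the highest of Insig2, Fads1, Cyp51 and Acat2.

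Most members reached 10 CPM in only a minority of the cells. Hmgcs1 had at least 1 count in 108 cells, all but 1, and Insig1 in 106, but Tm7sf2 in 22 and Idi1 in 23, and the median over the 29 members was 60.0 cells. At 10 CPM or more, Hmgcs1 was present in 75 cells (68.8%, 95% Wilson interval 59.6 to 76.7), Insig1 in 69 cells (63.3%, 53.9 to 71.8) and Scd2 in 56 cells (51.4%, 42.1 to 60.6), and the median member in 25 cells. The intervals treat the cells as independent draws, although cells share library groups. The spread between library groups is not in them. Among the cells with at least 10 CPM of a member, its median ran from 25.7 CPM for Fads2 to 1030 for Hmgcs1. Sc5d, the lathosterol 5-desaturase, was at 10 CPM or more in 15 cells, at a median of 498 CPM among them, while over all cells its median was 0. The median level over all cells was under 1 CPM for 22 of the 29 members.

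A single cell could therefore carry much of a member's signal. For 11 members, 1 cell held over 25% of the CPM summed over all cells. This share was largest for Hsd17b7, a 3-keto sterol reductase, at 48.1%, and for Lss, the lanosterol synthase, at 47.6%. It was smallest for Hmgcs1, at 6.61%, and for Insig1, at 7.66%.

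Correlations between members across the cells were weak. Over the 406 pairs of members, Spearman's rho across all cells of the 6 library groups had a median of 0.1 and ran from -0.2 to 0.47, with 321 pairs above 0. Pairs of other genes were not computed. The value was highest between Sqle, the squalene epoxidase, and Msmo1, the C4-methylsterol oxidase, at 0.47, and between Tm7sf2 and Sc5d, at 0.43. The cells share library groups and differ in depth, so these values are given as a description. Each cell had a median of 7.0 members at 10 CPM or more, and in all but 3 cells this number lay between 2 and 17.

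The 3 exceptions held 27 or 28 of the 29 members at 10 CPM or more. Of these, 2 were the cells with over 10000 detected genes, from library groups 3 and 6, in which the members summed to 3520 and 4160 CPM, close to the median cell at 3520 CPM. Both of these cells held Neurod1 and Mki67 together with 8 (group 3) and 7 (group 6) of 10 astroglial markers and 5 of 8 oligodendrocyte markers at 50 CPM or more, and whether each was a single cell was not tested. The last cell, from library group 4, had 6072 detected genes and held 28 members that summed to 22900 CPM, against 15200 CPM in the next highest cell. It lacked granule markers, with none of 7 at 50 CPM or more and Neurod1 at 1.35 CPM, and it held Mbp at 6580 CPM, Cnp at 6340, Sox10 at 433 and Olig2 at 121, which mark the oligodendrocyte lineage. In it Hmgcs1 was at 7450 CPM, the highest of all cells, Scd2 at 2930, Sc5d at 2230, Msmo1 at 2070 and Cyp51, the lanosterol 14-demethylase, at 1870. For 13 members this cell was among the 5 highest of all cells.

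Other cells with oligodendrocyte markers were not alike in this. A cell of library group 1 with Sox10 at 1700 CPM and Cnp at 9330 held 10 members at 10 CPM or more and 3560 CPM in sum. A cell of library group 3 with Sox10 at 2000 CPM and Pdgfra, a marker of oligodendrocyte precursors, at 8130 held 7 members and 1310 CPM. Each is 1 cell, so no test was made.

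**Figure D2:**
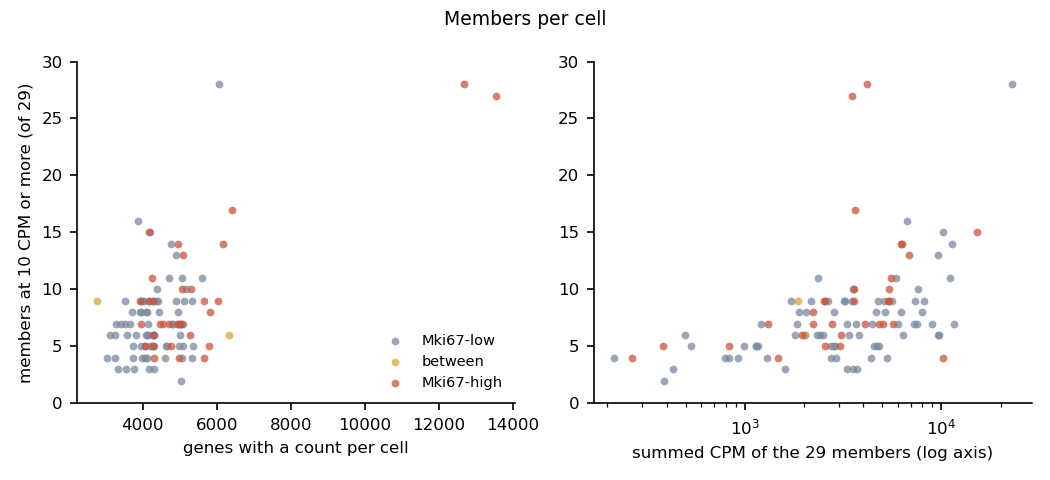
Each point is 1 cell, coloured by Mki67 class, with the number of the 29 members at 10 CPM or more against the number of detected genes (left) and against the summed CPM of the members on a log axis (right). Of the 3 cells with 27 or 28 members, 2 have over 10000 detected genes, and the other, with 6072 genes, has the highest summed CPM, 22900.

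The first comparison asked whether cycling cells differ from non-cycling cells in the pathway. Summed over the 29 members, Mki67-high cells held 3970 ± 1180 CPM and Mki67-low cells 4420 ± 637 CPM (mean ± SD of 6 library groups). Within every library group the counts of a class were added up, and these sums were compared by edgeR's quasi-likelihood test. All 29 members passed the filter on low counts and 0 had an adjusted p under 0.01, with 0.033% of 9085 genes called, namely Cdc20, Mki67 and Tacc3. With DESeq2 on the same sums, 0 of 26 members were called where 3.37% of all genes were. At an unadjusted p under 0.05 there were 2 of 29 members, Hmgcs1 lower and Srebf1 higher, against 7.34% of all genes.

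Hmgcs1 was chosen for a full description after its values were seen. In the sums, its level in Mki67-high cells was 509, 153, 386, 437, 614 and 501 CPM in library groups 1 to 6, and in Mki67-low cells 1300, 1240, 1490, 1750, 1620 and 525 CPM. The Mki67-low value was the larger in each library group, by the least in group 6, and the Mki67-high value of group 5 lay above the Mki67-low value of group 6, so the classes overlapped. Its log2 fold change in edgeR was -1.71 with an SE of 0.47, an unadjusted p of 0.00202 and an adjusted p of 0.364. As a mean over cells of log2(CPM + 1), in which every cell counts equally, it was lower in 5 of 6 library groups, at 5.29 ± 1.41 against 7.48 ± 1.16 (difference -2.19, exact sign-flip test, p = 0.09375, adjusted p = 0.494). Hmgcs1 was at 10 CPM or more in 18 of 32 Mki67-high cells (56.2%, 39.3 to 71.8) and in 55 of 75 Mki67-low cells (73.3%, 62.4 to 82.0). Without the 16 cells with glial markers, the fold change stayed below 0, as under all other alternatives, which ran from -2.51 to -1.41.

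Of the 7 early sterol genes, 5 had a log2 fold change below 0 and 2 above, with a median of -0.76. Of all tested genes, 45.2% lay above 0, with a median of -0.18. In mean log2(CPM + 1) the median difference of the 7 was 0.22, of the opposite sign, beside 0.32 for all genes. Mvd, the mevalonate diphosphate decarboxylase, was at -1.66 with an SE of 1.62 and was lower in 5 of 6 library groups in mean log2(CPM + 1), Pmvk, the phosphomevalonate kinase, was at -1.30, Fdps, the farnesyl diphosphate synthase, at -0.76 and Acat2, the cytosolic thiolase, at -0.62, and none of them passed the test. Mvk, the mevalonate kinase, had a log2 fold change of 1.99 with an SE of 1.75 (edgeR adjusted p = 0.834). By library group its mean log2(CPM + 1) was 3.70, 1.84, 1.77, 0.08, 0.79 and 1.41 in Mki67-high cells and 0.09, 0.39, 0.19, 0.98, 0.75 and 0.45 in Mki67-low cells, so only group 4 had the lower value in Mki67-high cells. The summed CPM of the 7 genes was 714 ± 260 in Mki67-high and 1650 ± 452 in Mki67-low cells, and most of both sums was Hmgcs1, at 455 ± 191 and 1290 ± 412 CPM per cell.

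From squalene to cholesterol, 8 of 11 members had a log2 fold change below 0 and 3 above, with a median of -0.63. Their median difference in mean log2(CPM + 1) was 0.43. For all genes these medians were -0.18 and 0.32, and 45.2% of all tested genes had a log2 fold change above 0. The lowest of the 11 were Tm7sf2 at -3.32 with an SE of 1.88 and Sc5d at -3.32 with an SE of 1.68 (edgeR adjusted p = 0.725 and 0.694), and Lss at -2.50 with an SE of 1.91 (adjusted p = 0.803). For Sc5d, the summed Mki67-high counts gave 0.0, 0.427, 82.1, 0.263, 5.8 and 50.5 CPM in library groups 1 to 6 and the Mki67-low counts gave 30, 424, 0.545, 157, 221 and 189 CPM. The Mki67-low value was larger in all groups but group 3. For Lss the sums ran from 0.449 to 49.2 CPM in Mki67-high cells and from 0.0 to 216 in Mki67-low cells, and for Tm7sf2 from 0.0 to 5.36 and from 0.0251 to 80.1 CPM. In both genes each class held library groups near 0 and the ranges overlapped.

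Among the SREBP regulators, Scap was the only member of the 29 with the same direction in all 6 library groups. Its mean log2(CPM + 1) was 4.29, 1.86, 1.93, 1.15, 3.79 and 3.34 in Mki67-high cells of groups 1 to 6 and 2.15, 0.96, 0.08, 0.60, 1.04 and 1.70 in Mki67-low cells. Each Mki67-high value was the higher of its pair, while the ranges of the classes overlapped. The difference was 1.64 ± 0.81 (SD of 6 pairs), with an exact sign-flip p (two-sided) of 0.03125, below which 6 pairs cannot go, and an adjusted p of 0.392 over all genes. One direction in all library groups was also seen for 7.97% of 11058 genes, against 1 of 29 members, and a higher value in all of them for 6.9%, so this count is not a result about the members. In 0 of 29 members did the classes not overlap, against 2.12% of genes. Scap kept that direction in each library group under all alternatives, including those without glial-marked cells and with each cell thinned to 1000000 counts. In the sums it was higher in 5 of the 6 groups, with a log2 fold change of 2.16 and an SE of 1.44 (edgeR adjusted p = 0.767).

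Srebf1, which encodes SREBP-1, had a log2 fold change of 3.17 with an SE of 1.42 in Mki67-high cells (edgeR adjusted p = 0.668). Its mean log2(CPM + 1) was 6.66, 1.65, 2.76, 2.33, 3.49 and 2.70 in Mki67-high cells and 2.02, 2.82, 2.01, 1.10, 0.22 and 2.44 in Mki67-low cells. It was higher in all groups but group 2, and group 1 stood well above the rest. Without group 1 the log2 fold change was 0.13. Srebf2, which encodes SREBP-2, had values of 3.25 ± 1.96 and 3.23 ± 1.58 on that scale, Insig1 4.52 ± 1.26 and 4.90 ± 0.55, and Insig2 1.89 ± 0.95 and 2.30 ± 0.97. None of these 3 passed the test.

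The 6 fatty acid genes were divided, 3 above 0 and 3 below, with a median log2 fold change of 0.15. Fads1 was at 1.54 with an SE of 0.90 and Scd2 at -0.76 with an SE of 0.80 (edgeR adjusted p = 0.73 and 0.869). Fasn, the fatty acid synthase, was at 0.63 with an SE of 1.09, and Acaca, the acetyl-CoA carboxylase, at -0.33 with an SE of 1.53. Over all 29 members, 11 log2 fold changes lay above 0 (37.9%, against 45.2% of all tested genes) and the median was -0.62. On the scale of mean log2(CPM + 1), however, 21 of 29 differences lay above 0 (72.4%, against 74.4% of all genes) and their median was 0.43, beside 0.32 for all genes, so the sign of the median depends on the scale. Mki67-high cells had a median of 4967 detected genes and Mki67-low cells 4193. The part of this in the differences was not tested.

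**Figure D3:**
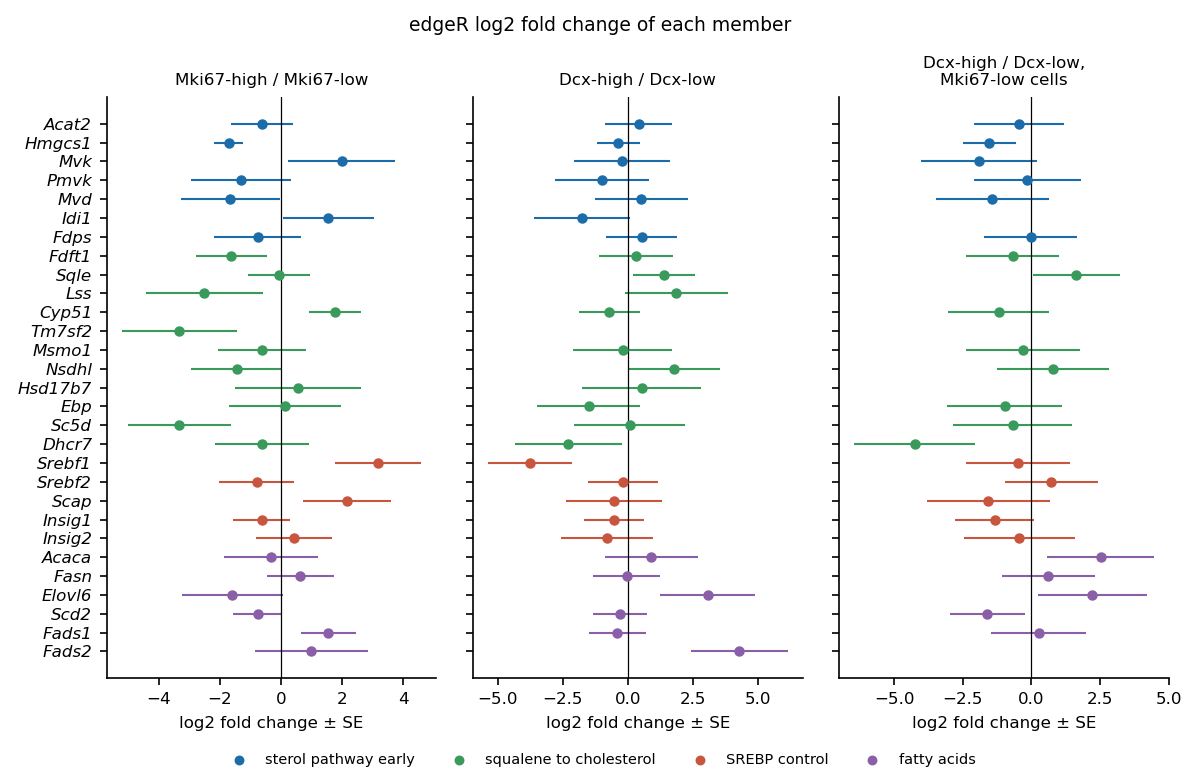
edgeR log2 fold change (point) with its SE (bar) of each member that passed the filter, ordered and coloured by role, in the comparisons of Mki67 (left), Dcx in all cells (middle) and Dcx in Mki67-low cells (right). Most bars span 0, and Hmgcs1 on the left has the shortest bar, at -1.71 with an SE of 0.47.

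The second comparison set Dcx-high against Dcx-low cells. These classes also differed in 4 markers of other cerebellar neurons, which summed to 416 CPM in Dcx-high and 2.3 CPM in Dcx-low cells. Gad1 was at 10 CPM or more in 12 Dcx-high and 0 Dcx-low cells, Pax2 in 7 and 0, Calb1 in 0 and 0 and Pvalb in 0 and 1. The part of such cells in the differences was not tested. Summed over the members, CPM was 3810 ± 626 in Dcx-high, 5150 ± 473 in Dcx-middle and 3820 ± 1960 in Dcx-low cells. Of the 29 members, 28 passed the filter and 0 had an adjusted p under 0.01, with 0.0132% of 7580 genes called, which is Dcx alone. DESeq2 called 0 of 27 members and 4.58% of all genes. At an unadjusted p under 0.05 there were 2 members of 28, Fads2 higher and Srebf1 lower, against 5.63% of genes. In no member was the direction the same in all 6 library groups, where 4.5% of 11001 genes had this, and 0 members had classes that did not overlap, against 0.564% of genes. The median log2 fold change was -0.19 for the members, 12 of 28 above 0, and -0.07 for all genes, 48.3% above 0. In mean log2(CPM + 1) the median difference of the members had the opposite sign, 0.11 against -0.03 for all genes, with 16 of 29 members (55.2%) and 46.9% of all genes higher in Dcx-high cells.

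While 48.3% of all genes had a log2 fold change above 0 in Dcx-high cells, all 5 members of the SREBP group lay below 0. The median of the 5 was -0.53. Srebf1 was the lowest at -3.76 with an SE of 1.61 (edgeR adjusted p = 0.863). Its mean log2(CPM + 1) was 1.20, 3.46, 2.44, 0.33, 0.26 and 2.27 in Dcx-high and 6.31, 3.37, 3.23, 2.64, 1.71 and 3.99 in Dcx-low cells. Only group 2 had the higher value in Dcx-high cells, and by little. In group 1, 2 Dcx-low cells held Srebf1 at 2291 and 5048 CPM. Both were Mki67-high and so were also in the first comparison. Without 1 library group the log2 fold change of Srebf1 ran from -5.24 to -1.95. Insig1, chosen here after its values were seen, was lower in Dcx-high cells in 5 of 6 groups, at 4.06 ± 0.69 against 4.92 ± 1.09 (difference -0.86, exact sign-flip p = 0.0625, adjusted p = 0.674). On the same scale Insig2 went the other way, at 2.36 ± 1.54 in Dcx-high and 1.45 ± 1.4 in Dcx-low cells, higher in Dcx-high cells in 5 of 6 groups, against its log2 fold change of -0.79.

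Among the enzymes, Fads2, the delta-6 desaturase, had a log2 fold change of 4.29 with an SE of 1.86, Elovl6, a fatty acid elongase, of 3.07 with an SE of 1.84, and Lss and Nsdhl, a sterol C4 decarboxylase, of 1.87 and 1.79 with SEs of 1.98 and 1.77. Dhcr7, the last reductase before cholesterol, was at -2.28 with an SE of 2.07. Fads2 summed to 3.71, 0.152, 5.53, 71.2, 29.4 and 4.56 CPM in Dcx-high and to 0.0772, 4.63, 0.245, 0.943, 0.378 and 0.0 CPM in Dcx-low cells. The Dcx-high value was larger in all groups but group 2. Dhcr7 summed to 79.9, 0.0303, 3.16, 9.38, 27.1 and 70.0 CPM in Dcx-high and to 0.0772, 1.29, 633, 38.1, 0.0 and 2.62 CPM in Dcx-low cells, and its negative fold change rested on group 3: without that group it was 2.08. With the library group as a block it was 1.32. The value of Lss rested on group 1 and was -0.60 without it.

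Elovl6 summed to 0.609, 4.0, 15.5, 183, 392 and 101 CPM in Dcx-high and to 3.94, 0.0, 3.76, 48.1, 28.4 and 0.374 CPM in Dcx-low cells, larger in Dcx-high cells in all groups but group 1. For Nsdhl the Dcx-high sums ran from 15.5 to 377 CPM and the Dcx-low sums from 0.0 to 213 CPM, and the ranges overlapped. Hmgcs1 had a log2 fold change of -0.36 with an SE of 0.82, at 850 ± 334 CPM in Dcx-high, 1370 ± 526 in Dcx-middle and 929 ± 754 in Dcx-low cells.

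Since 13 of the 26 Dcx-low cells were Mki67-high, Dcx levels were also compared among the 75 Mki67-low cells, with 45 Dcx-high, 17 Dcx-middle and 13 Dcx-low cells, the last with 1 to 3 per library group. Of the members, 24 passed the filter and 0 were called, with 0.0181% of 5537 genes called (Dcx alone). DESeq2 called 0 of 23 members and 7.93% of genes, and at an unadjusted p under 0.05 there were 0 of 24 members and 7.86% of genes. The median log2 fold change was -0.47 for the members, with 7 of 24 above 0, where 49.9% of all tested genes lay above 0. In mean log2(CPM + 1) the members' median difference was 0.03, again of the opposite sign, with 15 of 29 members (51.7%) and 47.1% of all genes higher in Dcx-high cells, and 0 members had classes that did not overlap, against 0.561% of genes. By role, the 6 early sterol genes that passed the filter all had a log2 fold change below 0, with a median of -0.93, where the median difference of all 7 in mean log2(CPM + 1) was -0.18 and Acat2 was higher by 0.33, Fdps by 0.06 and Idi1, which did not pass the filter, by 0.03. Of the fatty acid genes, 4 of 5 had a log2 fold change above 0, with a median of 0.62. No gene of either role passed the test. The 3 Dcx-low cells of group 4 included the cell with 28 members and 22900 CPM. It supplied 4429019 of their 11298922 counts. In this cell Mvd was at 367, Fdps at 253 and Mvk at 337 CPM. In the sums of these Dcx-low cells the same genes were at 144, 99.4 and 132 CPM. The part of this cell in the medians by role was not tested.

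Insig1 was the only member with one direction in all 6 library groups. Its mean log2(CPM + 1) was 3.43, 4.47, 4.13, 5.26, 4.62 and 3.35 in Dcx-high cells of groups 1 to 6 and 7.49, 6.41, 4.32, 7.64, 5.35 and 6.21 in Dcx-low cells. Each Dcx-high value was the lower of its pair, and the ranges overlapped. The difference was -2.03 ± 1.42, with an exact sign-flip p of 0.03125 and an adjusted p of 0.798 over all genes. One direction in all groups was seen for 3.33% of 10340 genes, and a lower value in all groups for 0.677%, beside 1 of 29 members. In CPM, the mean was 73.2 ± 41.4 in Dcx-high, 227 ± 307 in Dcx-middle and 149 ± 62.8 in Dcx-low cells, and in the sums the log2 fold change was -1.34 with an SE of 1.45 (edgeR unadjusted p = 0.365, adjusted p = 0.904).

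Of the 13 Dcx-low cells, 3 carried glial markers, as did 5 of the 45 Dcx-high cells. The 4 markers of other cerebellar neurons summed to a mean of 0.854 CPM in these Dcx-low and 501 CPM in these Dcx-high cells. The 10 astroglial markers summed to between 2.15 and 17300 CPM over the library groups in Dcx-low cells and to between 364 and 5980 in Dcx-high cells, and the 8 oligodendrocyte markers to between 0.181 and 7420 and between 6.14 and 1110 CPM. Without glial-marked cells, Insig1 was still lower in Dcx-high cells in all library groups, by a difference of -2.78. In Mki67-high cells the direction of Insig1 was divided: by library group, Dcx-low cells held 1.48, 0.64, 12.9, 102, 105 and 35.4 CPM, and Dcx-high cells, found in groups 2, 3, 5 and 6, held 53.7, 1.97, 9.88 and 102 CPM. The Dcx-high value was the higher in groups 2 and 6 and the lower in groups 3 and 5. Whether this differs from the Mki67-low cells was not tested.

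**Figure D4:**
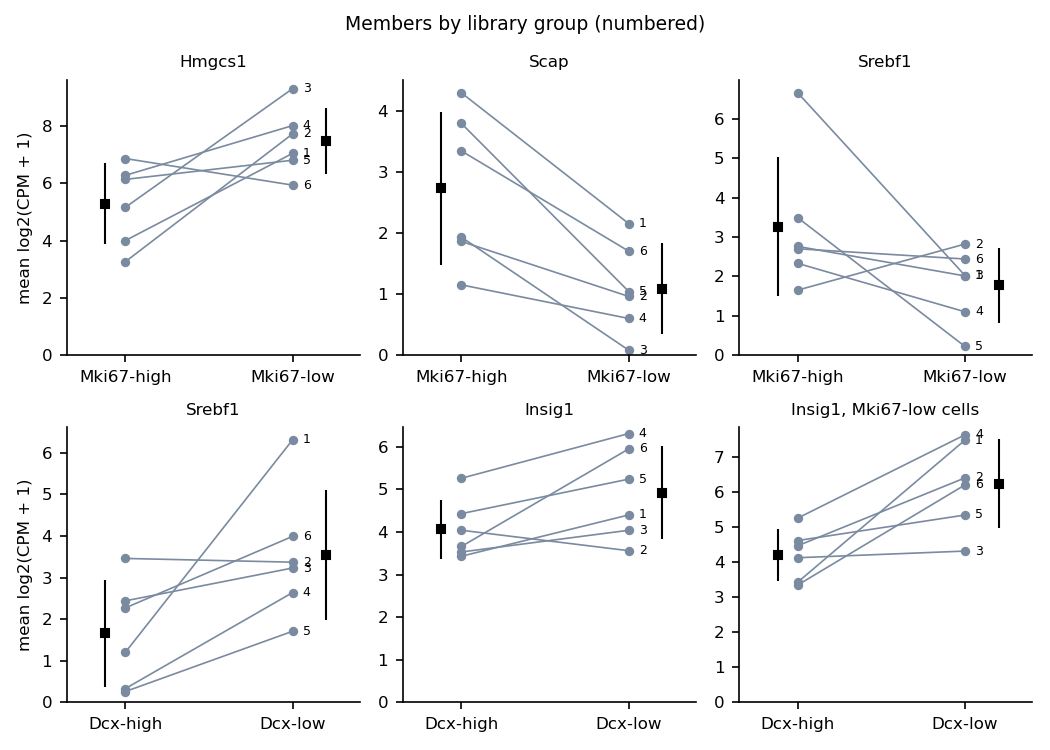
Mean log2(CPM + 1) over the cells of each class, joined within the 6 numbered library groups, with the mean ± SD of the groups beside the points, for Hmgcs1, Scap and Srebf1 by Mki67 class (top) and for Srebf1 and Insig1 by Dcx class (bottom, the last panel in Mki67-low cells only). All 6 lines of Scap go down from Mki67-high to Mki67-low cells, and all 6 lines of Insig1 in Mki67-low cells go up from Dcx-high to Dcx-low cells.

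Of the other members with large fold changes in Mki67-low cells, Dhcr7 and Mvk turned sign without 1 library group. Dhcr7 was at -4.26 with an SE of 2.20, with 1620 CPM in the Dcx-low cells of group 3 and 46.8 CPM or less in the other Dcx-low groups. Without group 3 its fold change was 1.5, and with the library group block 0.90. Mvk was at -1.90 with an SE of 2.11, with 132 CPM in the Dcx-low cells of group 4, the group of the cell with the most member counts, and it was at 4.37 without that group and at 0.90 with the block. Acaca was at 2.52 with an SE of 1.94, Elovl6 at 2.22 with an SE of 1.98, Sqle at 1.63 with an SE of 1.59 and Scd2 at -1.61 with an SE of 1.37. These 4 fold changes kept their sign when any 1 library group was left out. The difference in mean log2(CPM + 1) kept its sign for Acaca and Scd2 only. Without 1 group it ran from -0.59 to 0.7 for Elovl6 and from -0.28 to 0.6 for Sqle. The Scd2 sums were 448, 84.4, 532, 139, 40.4 and 567 CPM in Dcx-high and 292, 34.4, 1770, 1150, 53.2 and 0.323 CPM in Dcx-low cells, and neither class was the higher throughout.

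**Figure D5:**
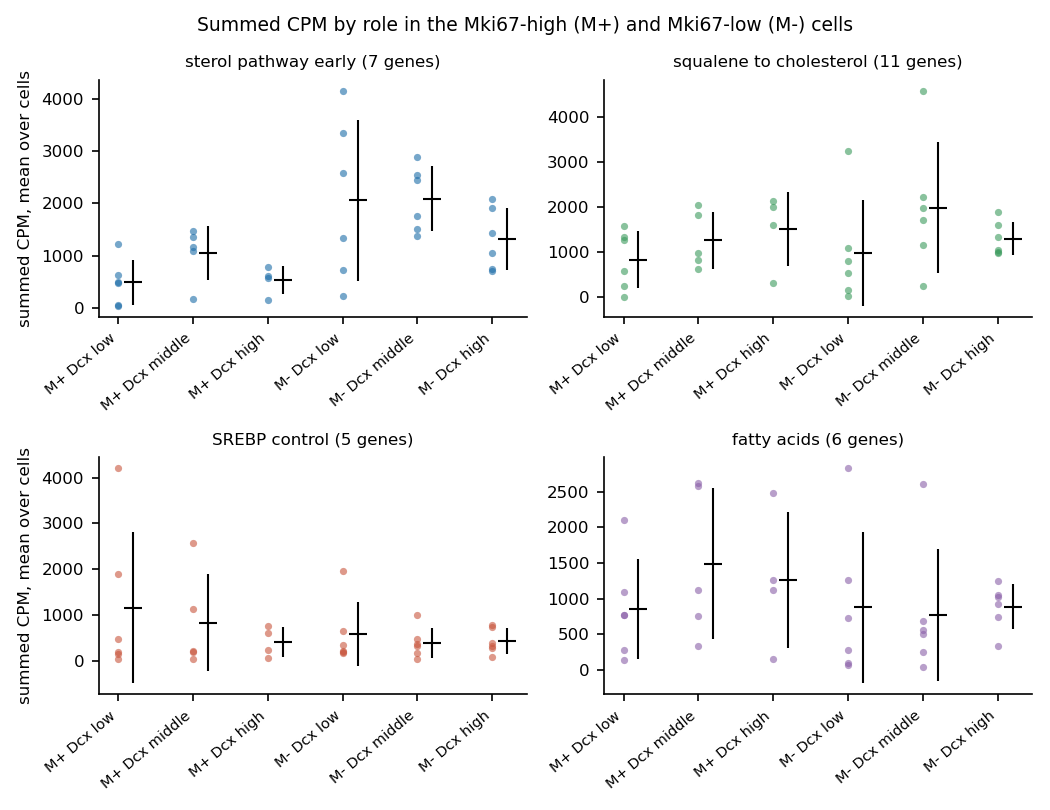
Summed CPM of the members of each role, averaged over the cells of a class within a library group (points) with the mean ± SD of the groups (bar), for the Dcx levels in Mki67-high (M+) and Mki67-low (M-) cells. The early sterol genes average 494 to 1060 CPM in the Mki67-high classes and 1330 to 2090 CPM in the Mki67-low classes, and in the other roles the ranges overlap more.

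Further lists of genes of the same metabolism, 5 in all, were examined in the same fits, and no gene of any of them was called in any of the 3 comparisons, against the shares of all genes called that are given above. The 10 SREBP processing genes had 5 log2 fold changes above 0 and 5 below by Mki67, with a median of -0.13. By Mki67, 45.2% of all tested genes lay above 0. In Mki67-low cells 7 of 8 were above 0 in Dcx-high cells, with a median of 2.23. Of all genes tested in Mki67-low cells, 49.9% lay above 0, with a median of -0.0. There Mbtps1, the site-1 protease that cleaves SREBP, was higher in Dcx-high cells in all 6 library groups, at 1.49 ± 0.67 against 0.27 ± 0.29 in mean log2(CPM + 1) (exact sign-flip p = 0.03125, the smallest possible), with a log2 fold change of 6.36, an SE of 2.06 and an edgeR adjusted p of 0.323. Mbtps2, the site-2 protease, at 1.86 ± 1.29 against 0.54 ± 1.10, and Pgrmc1, which binds Insig1 and Scap, at 3.25 ± 2.64 against 1.16 ± 2.33, were also higher in all 6 groups. A higher value in all groups was seen for 2.65% of all genes, and the median difference of the 10 listed genes in mean log2(CPM + 1) was 0.06.

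Of the 24 genes of fatty acid supply and elongation, 20 passed the filter by Mki67, 8 above 0 and 12 below, with a median of -0.62. Of all genes tested by Mki67, 45.2% lay above 0, with a median of -0.18. Acss2, which makes acetyl-CoA from acetate, was lower in Mki67-high cells in all 6 groups, at 0.40 ± 0.50 against 1.20 ± 0.99 in mean log2(CPM + 1), and Acsl3, an acyl-CoA synthetase, was higher in all 6, at 2.87 ± 1.92 against 0.93 ± 0.61. The edgeR adjusted p was 0.386 and 0.838. Elovl2, an elongase of long polyunsaturated fatty acids, was also higher in all 6, at 2.53 ± 1.4 against 1.14 ± 0.72, with a log2 fold change of -0.76 in the sums. Of the beta-oxidation genes, Etfb was higher and Acadvl lower in all 6 groups. Among all genes, 6.9% were higher and 1.07% lower in all groups. Sterol transport and storage had 6 of 13 above 0, with a median of -0.45, the isoprenoid branch 5 of 10, with a median of 0.17, and beta-oxidation, taken as a contrast, 4 of 10, with a median of -0.12. The median difference in mean log2(CPM + 1) by Mki67 was above 0 for all 5 lists, from 0.07 for sterol transport to 0.82 for the isoprenoid branch. For all genes this median was 0.32, and 74.4% of them lay above 0, so the shared sign is not a result about the lists.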

How the data were processed

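Single cells of P7 mouse cerebella were sequenced, and the deposited values are raw counts of reads per gene and cell, which the authors made with HTSeq 0.6.1 after alignment by STAR 2.4.1d (genome build mm10, from the submitters' processing notes), without normalization. The annotation and strand setting of the counting were not given in the sources used here, so reads of Cyp51 and Akap9, Srebf1 and Rai1, Fdft1 and Ctsb, Scap and 5830462I19Rik, and Tm7sf2 and Vps51, which overlap, may not be separated. Each gene in the table has a count in at least 3 cells. The libraries carry no molecular identifiers. No pair of cells was identical (0 pairs).

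The members, lists and classes were chosen with earlier results of these data known. CPM was 1000000 times the count over the total of the cell, and all cells were kept. Counts were summed per class and library group, filtered with filterByExpr, normalized by TMM and tested with the quasi-likelihood test of edgeR 4.0.16 in R 4.3.3, with Benjamini-Hochberg adjustment over all genes tested and a threshold of 0.01, as in the study. The SE was the log2 fold change over the square root of F. The paired test was an exact two-sided sign-flip test over the 6 library groups of the difference in mean log2(CPM + 1), for genes with a count in at least 10% of the cells, adjusted over all of these. Both were run on simulated data. For edgeR the simulated spread was smaller than the biological coefficient of variation found here, so it does not show the power of the test in these data. Full values are given for the members with the 6 largest absolute fold changes in a comparison and for those with one direction in all library groups. DESeq2 1.42.0, RLE normalization, no filter, a library group block, cells as units, thinning to 1000000 counts, a threshold of 0.05, other class limits, a pseudocount of 10, and leaving out glial-marked cells (at least 3 of 18 markers at 50 CPM), cells of unusual depth (under 100000 counts or over 10000 genes) or a library group were the alternatives. The block is the library group number of the labels, shared by construction by the classes compared. Exon lengths and gene overlaps came from GENCODE M21 (GRCm38) and promoters from RefSeq. Intervals are Wilson intervals at 95% confidence.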

Additional observations from a re-analysis of the deposited data

Results flagged for a closer look

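Among 42 classes of 6 library groups examined for the members with full values, 4 had a library group that stood apart from the other 5 by Dixon's test at 95%, and chance flags about 1 in 20. In mean log2(CPM + 1), Srebf1 in Mki67-high cells was at 6.66 in library group 1, where the others ran from 1.65 to 3.49. Fads2 in Dcx-low cells was at 2.04 in library group 2, with the others at 0.0 to 0.55. Mvk stood apart in both Dcx classes of the Mki67-low cells, at 1.5 in the Dcx-high cells of group 5, with the others at 0.06 to 0.48, and at 2.80 in the Dcx-low cells of group 4, with the others at 0.0 to 0.90. The last value includes the cell with Mbp and Cnp, in which Mvk was at 337 CPM.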

How the results depend on the processing

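No member was called under edgeR or DESeq2 on the sums. Genes called by Mki67 numbered 3, and 7 at a threshold of 0.05, 7 with RLE, 373 with DESeq2, 1 with the library group block, 47 with cells as units and 1 with other class limits, and 2 to 3 without a library group. By Dcx there was 1, with 430 for DESeq2 and 4 with cells as units. In Mki67-low cells there was 1, with 605 for DESeq2 and 0 with RLE or without glial-marked cells. The cause of these spreads was not tested. Members with one direction in all library groups numbered 1 by Mki67 (3 with other class limits, which left 5 library groups, and 1 to 3 without a library group), 0 by Dcx (2 without glial-marked cells, 1 each with other limits, with thinning and without cells of unusual depth, 0 to 3 without a library group) and 1 in Mki67-low cells (3 with other limits, 2 with thinning, 1 to 2 without a library group). The thinned and unusual-depth settings of these counts were chosen after seeing the data. Without glial-marked cells Insig1 was the member lower in all groups by Dcx.

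For the members with full values, 290 alternative log2 fold changes kept their sign and side of the threshold and 8 reversed. By Mki67, Mvk was at -0.17 with other class limits. By Dcx, Dhcr7 was at 1.32 with the block, and without 1 library group Dhcr7 ran from -3.20 to 2.08 (the latter without group 3) and Lss from -0.60 (without group 1) to 2.91. In Mki67-low cells, with the block Dhcr7 was at 0.90 and Mvk at 0.90, and without 1 library group Dhcr7 ran from -5.13 to 1.5 (without group 3) and Mvk from -5.81 to 4.37 (without group 4). The block changed no other direction among these members. The median member was found in 60.0 cells at 1 count, 32 at 5 counts and 40 after thinning. The Mki67-low cells held 1 to 3 Dcx-low cells per library group, and the biological coefficient of variation was 172% to 195% over the 3 comparisons.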
